A study of Mus musculus with 6 samples.

Results

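The expression of 7 genes from 2 related systems was followed in whole E14.5 mouse lung. The first 3 are parts of one receptor system: Ret, a receptor tyrosine kinase, Gfra1, the co-receptor that binds its ligand, and Gdnf, the ligand. The other 4 mark Schwann cell precursors, the neural crest cells that travel along nerves: Sox10, a transcription factor, Erbb3, a receptor for neuregulins, Fabp7, a carrier of fatty acids, and Ngfr, the low-affinity neurotrophin receptor. Features were chosen by their annotation, with the gene as the only symbol, and by the highest mean over the 6 arrays where a gene had several. Each of the 7 had exactly 1 such feature, so the mean made no choice, and they are 7 of 19938 genes compared. Ret lies on mouse chromosome 6, Gfra1 on 19, Gdnf and Sox10 on 15, Erbb3 and Fabp7 on 10 and Ngfr on 11. The genes themselves were listed with earlier results of these data in view, the fall of Ret among them, so the p-values below describe a chosen set.

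The mutant embryos, 3 in number, carried Shh-Cre with floxed alleles of the forkhead genes Foxp1, Foxp2 and Foxp4, and the 3 control embryos carried Shh-Cre alone. The mutants' genotype label repeats Foxp1 in the place of Foxp2, and the design text says DKO, a usual short form of double knockout. Their genotype is taken here from the series title, which names Foxp1, Foxp2 and Foxp4. All 6 embryos had a mixed C57BL/6 and 129X1 background, and the design text speaks of 3 embryos per group. Shh-Cre acts in cells that express or descend from cells that expressed Shh, which in the lung is the endoderm and its epithelium, so nerves, glia and mesenchyme are not where this Cre is known to act.

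GDNF binds GFRA1, and the pair activates RET, which signals through the MAP kinase pathway and others. The system is best known for guiding enteric neural crest cells into the gut wall and for the branching of the ureteric bud in the kidney, where mesenchyme makes GDNF and the epithelial bud carries RET. In the lung, neural crest cells enter from the foregut, form intrinsic neurons and glia, and follow the airway smooth muscle. Schwann cell precursors depend on neuregulin signals received by ERBB3, and SOX10 is required for their formation. ERBB3 is also made by many epithelia, so Erbb3 in whole lung is not a marker of glia alone.

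Promoter sequences of 4 of the 7 genes (Fabp7, Ngfr, Gdnf with 2 start sites, and Gfra1) were in the RefSeq table of build GRCm38.p6, and Ret, Sox10 and Erbb3 were not matched. The 250 bases before the start site are printed 5′ to 3′ for Fabp7, the member with an entry that passed the test below, and for the ligand and the co-receptor of Ret. Capitals mark matches to the forkhead core TGTTTA, to the SOX cores ACAAAG and ACAATG or to the NKX2 core CACTTG, each searched on both strands, with no overlap between matches. The Fabp7 window (chr10:57784673-57784922, plus strand), the window of the upstream Gdnf start (chr15:7809798-7810047, plus strand) and the Gfra1 window (chr19:58455399-58455648, minus strand) were as follows.
Fabp7: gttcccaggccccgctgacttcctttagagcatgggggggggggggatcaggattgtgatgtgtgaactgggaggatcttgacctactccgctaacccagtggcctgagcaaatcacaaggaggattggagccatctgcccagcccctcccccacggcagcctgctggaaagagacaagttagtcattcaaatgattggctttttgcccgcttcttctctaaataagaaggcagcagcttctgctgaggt
Gdnf: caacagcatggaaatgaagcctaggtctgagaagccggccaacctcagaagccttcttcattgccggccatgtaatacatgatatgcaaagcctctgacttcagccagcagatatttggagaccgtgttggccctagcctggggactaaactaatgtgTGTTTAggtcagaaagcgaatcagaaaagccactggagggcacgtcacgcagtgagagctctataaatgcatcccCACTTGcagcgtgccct
Gfra1: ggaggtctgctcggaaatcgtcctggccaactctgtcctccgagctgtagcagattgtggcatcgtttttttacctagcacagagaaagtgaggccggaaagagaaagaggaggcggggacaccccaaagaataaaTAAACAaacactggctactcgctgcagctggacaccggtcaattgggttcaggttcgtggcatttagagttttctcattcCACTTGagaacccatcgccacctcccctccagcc

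A forkhead core began 92 bases before the upstream Gdnf start and, on the opposite strand, 114 bases before the Gfra1 start, so 2 of the 5 windows held one, against 12.0% of 32851 promoter windows of the same length. A SOX core was in 0 of the 5 windows, against 25.2% of all windows. An NKX2 core was in 4 of the 5, in both Gdnf windows, in Gfra1 and in Ngfr, against 11.6% of all windows. The Fabp7 window held no match. A match is only a run of letters, and binding was not measured here.

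Values are log2 expression as deposited, so a step of 1 is a 2-fold change, and differences are mutant minus control. Of the targeted genes, Foxp2 averaged 9.58 ± 0.03 in mutants and 10.53 ± 0.01 in controls (SD, n = 3 each, limma adjusted p = 4.75e-05). Foxp4 averaged 8.76 ± 0.20 in mutants and 9.40 ± 0.03 in controls (adjusted p = 0.00591), and Foxp1 9.42 ± 0.15 in mutants and 9.72 ± 0.04 in controls (adjusted p = 0.0661, and 0.0428 without mutant 3). Whether these features lie in the deleted exons was not tested. Across all genes 1528 (7.66%) passed an adjusted p of 0.05, 3.84% higher and 3.83% lower in mutants, and the groups did not overlap for 25.9%. The 765 higher and 763 lower genes became 572 and 760 with each array centred on its median, and 667 and 865 after repeated quantile normalization. Of the 7 members 3 passed, beside that 7.66%: Ret and Erbb3 were lower and Fabp7 was higher. Markers of heart muscle set mutant 1 apart: the median of 22 heart muscle genes relative to the control mean was 1.10 in mutant 1, against -0.22 in mutant 2 and -0.18 in mutant 3, and it lay between -0.02 and 0.00 in the controls. Values without mutant 1 are given for Ret, for Ngfr and for Erbb3, the member whose call they end.

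**Figure D1:**
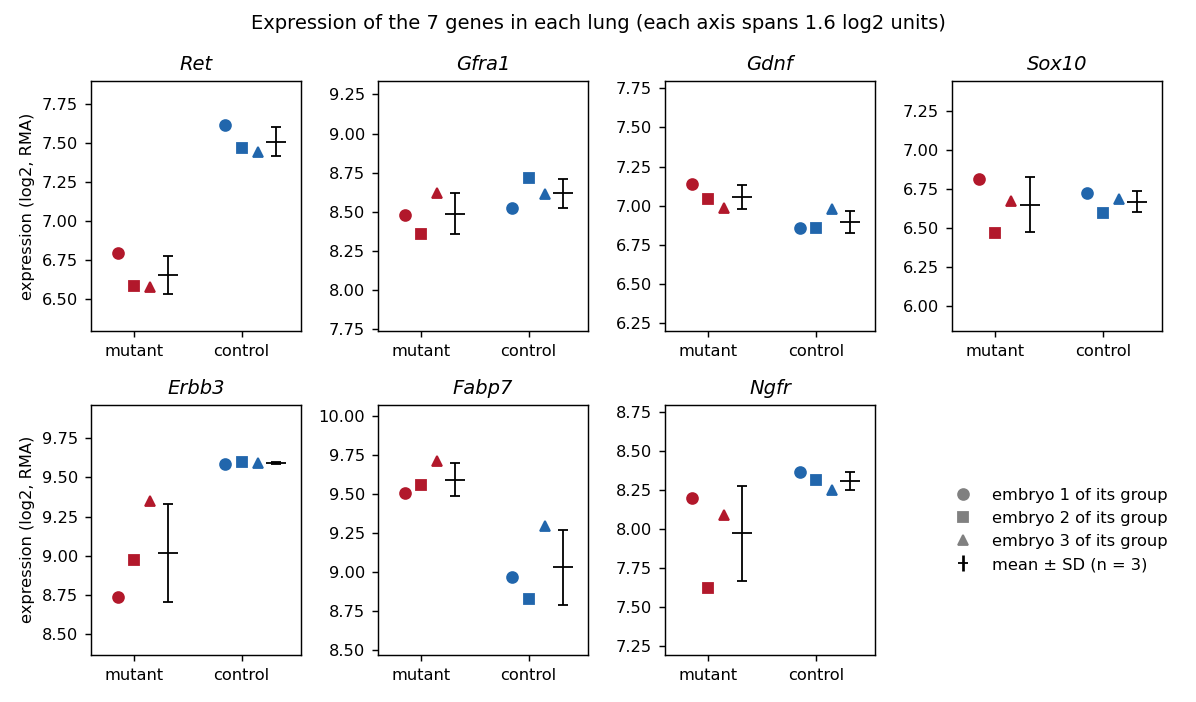
Expression (log2, deposited values) of the 7 genes in each lung, with 3 mutant lungs at the left and 3 control lungs at the right of each panel, and the mean with SD (n = 3) beside them. Ret and Erbb3 lie wholly lower in mutants, Fabp7 wholly higher, and the groups overlap for Sox10 and Gfra1.

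Ret, the receptor, showed the clearest difference of the 7. It read 6.79, 6.59 and 6.58 in mutants 1 to 3, against 7.61, 7.47 and 7.44 in controls 1 to 3. The mutant mean, 6.65, lay below the medians of the mutant arrays (6.74 to 6.79), a dim level at which differences can be compressed. The groups were separated by more than the spread within either, and mutant 1 was the least low of the mutants. The difference was -0.85 ± 0.08 (SE, n = 3 per group), or 1.81-fold lower, with a 95% interval of -1.04 to -0.67 and a limma adjusted p of 0.000578. By its unadjusted p it ranked 178th of the 19938 genes. Without mutant 1 the difference was -0.92 (adjusted p = 0.000415), and with the heart muscle median as a covariate it was -0.87 (adjusted p = 0.000203). In whole lung, fewer cells that express Ret and less Ret RNA per cell cannot be told apart, and this holds for each gene below.

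Gfra1, the co-receptor, did not pass. It read 8.48, 8.36 and 8.62 in mutants, against 8.52, 8.71 and 8.61 in controls. The groups overlapped, with mutant 3 above controls 1 and 3. The difference was -0.13 ± 0.08, with a 95% interval of -0.32 to 0.06 (adjusted p = 0.464), so a fall as large as that of Ret lies outside the interval.

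Gdnf, the ligand, did not pass either. It read 7.14, 7.04 and 6.98 in mutants, against 6.86, 6.86 and 6.98 in controls. All mutants lay above all controls, but mutant 3 and control 3 were nearly level. The difference was 0.16 ± 0.07, with an interval of 0.01 to 0.31 (adjusted p = 0.23). The receptor was thus lower while its co-receptor and ligand were not shown to change.

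Sox10, the transcription factor that defines the neural crest glia, was not separated between the groups. It read 6.81, 6.46 and 6.67 in mutants, against 6.72, 6.59 and 6.68 in controls. Mutant 1 was the highest of the 6 lungs and mutant 2 the lowest. The difference was -0.018 ± 0.09, with an interval of -0.23 to 0.19 (adjusted p = 0.951), and its sign turned without mutant 2 (0.074) or without control 1 (0.010). A fall as large as that of Ret lies outside the interval.

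Erbb3 was lower in mutants with a wide spread among them. It read 8.73, 8.97 and 9.35 in mutants, against 9.59, 9.60 and 9.59 in controls. All 3 mutants were lower, with an SD of 0.312 among them, against 0.00554 among controls. The difference was -0.57 ± 0.14, or 1.49-fold lower, with an interval of -0.89 to -0.26 (adjusted p = 0.0438). The call ended when any of 5 arrays was left out, with adjusted p of 0.0597 without mutant 1, 0.0862 without mutant 2, 0.138 without control 1, 0.138 without control 2 and 0.145 without control 3.

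Fabp7 moved the other way. It read 9.50, 9.56 and 9.71 in mutants, against 8.97, 8.83 and 9.29 in controls. All mutants lay above all controls, and lung 3 was the highest of each group. The difference was 0.56 ± 0.12, or 1.47-fold higher, with an interval of 0.29 to 0.83 (adjusted p = 0.0269). The call ended without mutant 3 (adjusted p = 0.0855), control 1 (0.109) or control 2 (0.0899), and the difference then lay between 0.46 and 0.53. By Xist, lung 3 is the one male lung of each group, and with sex as a covariate the adjusted p was 0.00716.

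Ngfr did not pass. It read 8.20, 7.62 and 8.09 in mutants, against 8.36, 8.31 and 8.25 in controls. All mutants were lower, and mutant 2 stood well below the other lungs. The difference was -0.34 ± 0.14, with an interval of -0.65 to -0.02 (adjusted p = 0.216). Without mutant 2 it was -0.16 (adjusted p = 0.186). Without mutant 1 it was -0.45 (adjusted p = 0.0895), and with the heart muscle median as a covariate it was -0.36 (adjusted p = 0.0976).

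**Figure D2:**
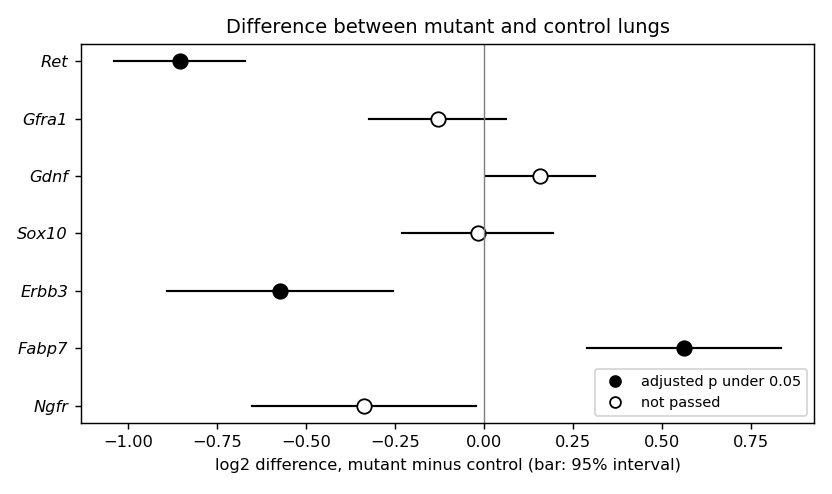
Log2 difference, mutant minus control, of each gene (circle) with its 95% interval from the fit (bar), filled where the adjusted p was under 0.05. Ret at -0.85 and Fabp7 at 0.56 lie on opposite sides of 0, and the interval of Sox10 spans 0.

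Whether Ret and each other member changed by the same amount was asked next. In each lung the log2 value of the other gene was subtracted from that of Ret, and this quantity was compared between the groups. The mutant minus control difference of this quantity was -0.84 for Sox10 (95% interval from the pooled SD, -1.04 to -0.63), -0.52 for Ngfr (-0.92 to -0.11) and -1.42 for Fabp7 (-1.98 to -0.85). Relative to Gfra1 it was -0.72 (-1.13 to -0.32) and relative to Gdnf -1.01 (-1.26 to -0.77). In these 5 pairs the mutants were all lower than the controls, which gives an exact two-sided permutation p of 0.1, the smallest that 3 lungs against 3 allow, and 0.12 adjusted over the 6 pairs. Relative to Erbb3 it was -0.28 (-0.97 to 0.40), the groups overlapped, and the exact permutation p was 0.4. This overlap came from mutant 1: without it the value was -0.49, the groups no longer overlapped and the exact permutation p was 0.1. Without mutant 3 the value was -0.079. Ret was thus lower relative to Sox10, Fabp7 and Ngfr in every mutant lung than in any control lung. The Erbb3 pair overlapped through mutant 1, and the test cannot pass 0.05 at this sample size. Ret was listed with its fall in view, so it can be lower relative to most genes for that reason alone. No share over all genes is given to set beside the 5 pairs. The quantity compares sizes of change and does not tell whether a gene moved with Ret: Ngfr, in 1 of the 5 pairs, was itself lower in all mutants.

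The order of the mutant lungs differed between the genes. Relative to the control mean, Ret was at -0.71, -0.92 and -0.93 in mutants 1 to 3. Erbb3 was at -0.86, -0.62 and -0.24, the lowest where Ret was the least low. The median of 30 epithelial markers was at -0.69, -0.38 and -0.29 in the same lungs, in the order of Erbb3, and between -0.03 and 0.04 in the controls. The medians of 14 endothelial genes (-0.22, -0.11 and -0.02) and of 6 endothelin pathway genes (-0.26, -0.13 and -0.09) had the same order, so it was not particular to epithelium. Of the 30 epithelial markers 16 were lower, 0 higher and 14 did not pass, beside 7.66% called among all genes. The lower ones included Sftpc (-5.58), the surfactant gene of distal epithelium, Krt7 (-1.44), Elf5 (-1.37) and Esrp2 (-1.15). Without control 1 or without control 2, 10 were lower. The part of the epithelial markers in the Erbb3 difference was not tested. The median of 26 glial genes was at 0.00, -0.15 and -0.04, and Sox10 itself at 0.15, -0.20 and 0.00.

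**Figure D3:**
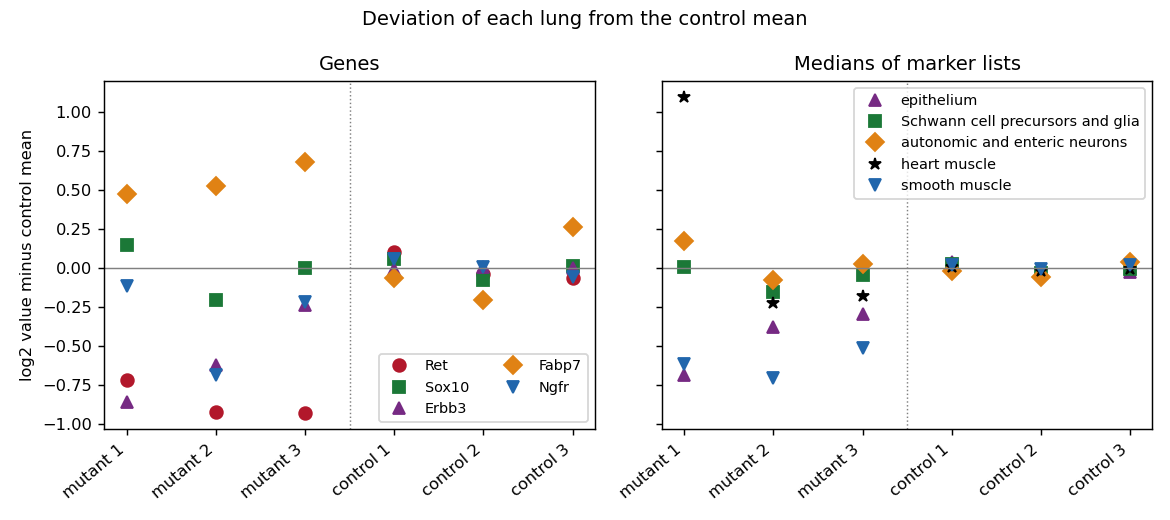
Deviation of each lung from the control mean (log2), for Ret and the 4 neural crest genes at the left and for medians of 5 marker lists at the right, mutants before controls. Ret lies between -0.93 and -0.71 in the mutants, the glial median between -0.15 and 0.00, and the heart muscle median reaches 1.10 in mutant 1.

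Apart from Ret, 1 of the RET ligands and receptors passed. Among 12 measured, Ret was lower, Ncam1 was higher and the other 10 missed the threshold, beside 7.66% called among all genes. The median was 0.05, beside -0.01 over all genes. Ncam1, a cell adhesion molecule that can also bind GDNF, read 9.49, 9.54 and 9.50 in mutants, against 9.01, 9.03 and 9.11 in controls (0.47 ± 0.06, adjusted p = 0.00208). Neurturin (Nrtn), a ligand that prefers Gfra2, was at -0.16 (adjusted p = 0.149), and Gfra2 read 9.53, 9.26 and 9.87 in mutants, against 9.15, 9.43 and 9.34 in controls (0.25 ± 0.15, adjusted p = 0.429). The ligands Artn and Pspn and the co-receptors Gfra3, Gfra4 and Gfral had differences between -0.04 and 0.13, and Sdc3, a proteoglycan that binds GDNF, was at 0.17 (adjusted p = 0.501), which completes the list. These, given so that the list is whole, were named after their values were seen.

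Genes that respond to RET in the ureteric bud, many of which respond to FGF receptors in the lung, moved in both directions. Of 15 measured, 6 were higher, 2 lower and 7 did not pass (median 0.16), beside 7.66% called among all genes. The ETS factor Etv4 read 8.62, 8.78 and 8.87 in mutants, against 7.38, 7.03 and 7.12 in controls (1.58 ± 0.10, adjusted p = 0.000108). Its close relative Etv5 read 10.00, 9.95 and 9.56 in mutants, against 10.72, 10.75 and 10.65 in controls (-0.87 ± 0.11, adjusted p = 0.00294). These 2 factors act together downstream of RET in the kidney, and here they lay on opposite sides of the controls. Of the feedback inhibitors of the MAP kinase pathway in this list, Dusp6 was at 0.83 ± 0.10 (adjusted p = 0.00202) and Spry4 at 0.63 ± 0.09 (adjusted p = 0.00451). Spry1 (0.57), Spred1 (0.25) and Spred3 (0.29) were also higher, while Spry2 (0.18, adjusted p = 0.166), Spred2 (0.13, adjusted p = 0.562) and Dusp4 (0.01, adjusted p = 0.961) did not pass, and these 6 genes were chosen after their values were seen. The chemokine receptor Cxcr4 (0.01, adjusted p = 0.978) and Wnt11 (0.16, adjusted p = 0.516), both targets of RET in the bud and chosen after their values were seen, did not pass. Myb (-0.37, adjusted p = 0.0199) was the other lower gene. Met (-0.47, adjusted p = 0.0646) was lower in all mutants than in any control without passing. Mmp14 (-0.19, adjusted p = 0.402) did not pass and completes the list. Myb, Met and Mmp14 were also named after their values were seen. Without control 1 or control 2 the count was 4 higher and 1 lower.

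Several regulators of Gdnf and Ret, as known from kidney and neural crest, were higher. Of 23 measured, 9 were higher, 2 lower and 12 did not pass (median 0.20), beside 7.66% called among all genes. Eya1, a cofactor that activates Gdnf in kidney mesenchyme, read 8.76, 9.08 and 9.16 in mutants, against 7.55, 7.66 and 7.57 in controls (1.41 ± 0.10, adjusted p = 0.00019). Gata3, which maintains Ret in the kidney duct, read 7.88, 8.31 and 7.99 in mutants, against 6.80, 6.58 and 6.59 in controls (1.40 ± 0.12, adjusted p = 0.000313), so it and Ret lay on opposite sides of their controls. Pax8, a paired box factor of the duct, was at 1.10 ± 0.10 (adjusted p = 0.000413). Nkx2-1, the lung and thyroid homeobox factor that can activate human RET, read 8.98, 9.32 and 9.44 in mutants, against 10.12, 10.16 and 10.09 in controls (-0.88 ± 0.11, adjusted p = 0.0026). Without control 3 the count was 6 higher and 1 lower.

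Of 26 measured genes of Schwann cell precursors and glia, 2 were higher (Itga4 and Fabp7), 2 lower (Nrcam and Erbb3) and 22 missed the threshold (median -0.06). Leaving out the 4 members, 1 of 22 was higher and 1 lower, a called share near the 7.66% of all genes. Whether these 22 differed from all genes below that threshold was not tested. The groups did not overlap for 9 of the 22, beside 25.9% of all genes. Of the 9, 6 were lower and 3 higher in mutants, beside 12.6% and 13.4% of all genes. Of the 26, 10 had an unadjusted limma p under 0.05, beside 3957 of all 19938 genes. These 10 include the members Erbb3, Fabp7 and Ngfr. Nrcam, a neuronal and glial adhesion molecule, read 7.49, 7.58 and 7.61 in mutants, against 8.20, 8.32 and 8.23 in controls (-0.69 ± 0.06, adjusted p = 0.000459). Itga4, an integrin of crest cells that is also made by mesenchyme and blood cells, was at 0.78 ± 0.16 (adjusted p = 0.0207), and its call ended without control 1 (adjusted p = 0.0776), control 2 (0.076) or control 3 (0.0889). Among genes chosen after their values were seen, the crest factor Foxd3 was at -0.10 (adjusted p = 0.383), the glial cadherin Cdh19 at -0.03 (adjusted p = 0.899) and S100b at -0.05 (adjusted p = 0.777). Also chosen so were Mbp (-0.18, adjusted p = 0.205), Pmp22 (-0.17, adjusted p = 0.239) and Mal (-0.24, adjusted p = 0.158). These 3 and Foxd3 were lower in all mutants than in any control without passing. Other listed genes, also chosen after their values were seen, went up without passing. They were Tfap2a (0.67, adjusted p = 0.0769), Moxd1 (0.55, adjusted p = 0.274) and Gap43 (0.38, adjusted p = 0.0848). Tfap2a and Gap43 were higher in all mutants than in any control. In the whole list 8 genes lay wholly lower in mutants and 4 wholly higher, beside 12.6% and 13.4% of all genes. Cdh19 read between 4.10 and 4.39 and S100b between 5.25 and 5.46 in all lungs, below the array medians of 6.74 to 6.79 in mutants, which leaves little room to see a fall. Without control 1 or control 2 the list had 0 higher and 1 lower, and without control 3 it had 1 higher and 1 lower.

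Neurons are another cell type that can express Ret. Of 33 genes of autonomic and enteric neurons, 2 were higher, 1 lower and 30 did not pass (median 0.03), a called share near the 7.66% of all genes. Of the 33, 5 had a control mean above the median of all genes tested. Most were thus dim, which leaves little room to see a fall. Isl1, a LIM homeobox factor that is also made by mesenchyme, was at 1.41 ± 0.19 (adjusted p = 0.00402), Rtn1 at 0.79 ± 0.09 (adjusted p = 0.00128) and the neuropeptide gene Gal at -0.37 ± 0.06 (adjusted p = 0.00826, and 0.0506 without control 3). The growth cone gene Gap43 was at 0.38 (adjusted p = 0.0848) and the axonal gene Stmn2 at -0.01 (adjusted p = 0.985), both chosen after their values were seen. Without mutant 2 the list had 4 higher and 1 lower. Of 16 genes of pulmonary neuroendocrine cells, Bex2 was higher (0.63, adjusted p = 0.0395) and 15 did not pass, with Bex2 losing its call without mutant 1 (adjusted p = 0.0528), control 1 (0.119), control 2 (0.147) or control 3 (0.0919) and 2 genes higher without mutant 3. Of 10 genes of melanocytes, the pigment cells of the crest, Kit was higher (0.24, adjusted p = 0.0487) and lost its call without any one of 5 arrays, with adjusted p up to 0.185. The counts of both lists stand beside the same 7.66% of all genes. Most genes of both were dim as well: 2 of the 16 and 1 of the 10 had a control mean above the median of all genes tested.

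**Figure D4:**
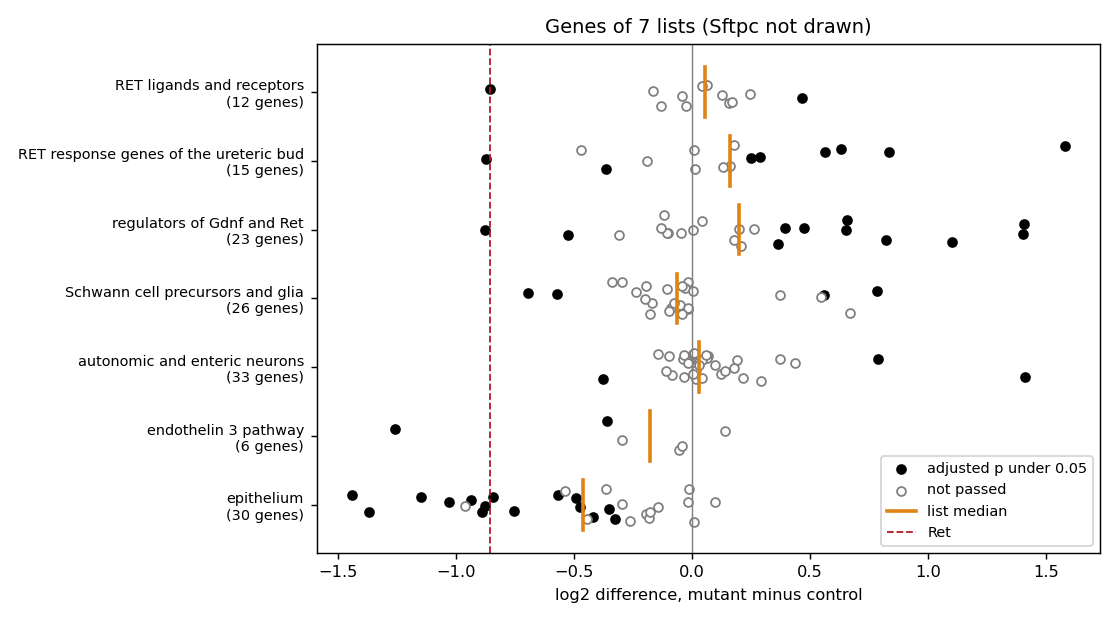
Log2 difference, mutant minus control, of the genes of 7 lists (points, filled where the adjusted p was under 0.05), with the list median (orange bar), the value of Ret (dashed line) and Sftpc left out for scale. The glial median is -0.06, the neuronal median 0.03 and the epithelial median -0.46.

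Signals that act on crest cells were changed in places. In the endothelin pathway, 2 of 6 genes were lower and 4 did not pass, beside 7.66% called among all genes. Edn3, the ligand that keeps enteric crest cells undifferentiated, read 7.71, 7.66 and 7.92 in mutants, against 9.14, 8.96 and 8.95 in controls (-1.26 ± 0.09, adjusted p = 0.000145). Edn1 was at -0.36 (adjusted p = 0.0399) and lost its call without any one of 5 arrays (adjusted p up to 0.143). The EDN3 receptor gene Ednrb, chosen after its values were seen, read 10.13, 10.87 and 10.75 in mutants, against 10.94, 10.78 and 10.91 in controls, and did not pass (-0.29 ± 0.17, adjusted p = 0.422). Only the mutant 1 value stood apart.

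Among 14 ERBB receptors and ligands, Erbb3 was lower, Tgfa higher (0.32, adjusted p = 0.0306, and up to 0.125 without single arrays) and 12 did not pass. This stands beside 7.66% called among all genes. Erbb2, the signalling partner of ERBB3, was at 0.14 (adjusted p = 0.491) and the Schwann cell ligand Nrg1 at 0.03 (adjusted p = 0.91), both chosen after their values were seen. The list held 0 called genes without mutant 1 or without any one control, and Tgfa alone without mutant 2. Among 11 neurotrophin genes, 2 were lower and 9 did not pass, beside the same 7.66% of all genes. The lower ones were Sorcs2 (-0.65 ± 0.06, adjusted p = 0.000399) and Sort1 (-0.48 ± 0.06, adjusted p = 0.00245), which encode sorting receptors that can pair with NGFR.

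Most genes of smooth muscle, the tissue that lung nerves follow, were lower. Of 18 genes, 12 were lower, 2 higher and 4 did not pass (median -0.57), beside 7.66% called among all genes. The largest falls were those of Myh11 (-2.57), Hhip (-2.32), Cnn1 (-2.21) and Actg2 (-1.99). The list median relative to the control mean was -0.61, -0.70 and -0.51 in mutants 1 to 3, and its part in the Ret difference was not tested. Tissue that a dissection could carry over was examined with 3 further lists. Of 15 skeletal muscle genes 0 passed in limma (2 at an unadjusted p under 0.05), with Myf5 at 0.30 (adjusted p = 0.0765) and Actn3 at 0.19 (adjusted p = 0.172), and 1 was higher and 1 lower without mutant 1. Of 13 genes of oesophageal epithelium 3 were higher (Pax9, 1.27, Dsc3, 1.00, and Trp63, 0.34) and Sox2, also an airway gene, was lower (-2.08). Trp63 lost its call without mutant 1 (adjusted p = 0.0703), mutant 2 (0.0718), mutant 3 (0.0705), control 1 (0.117) or control 3 (0.124). Without control 2 the counts were 1 higher and 1 lower, and without control 3 they were 0 and 1. Of 22 heart muscle genes 1 was lower (Smpx, -0.99), 6 without mutant 1 and 0 without any one control. Of 14 endothelial genes Eng was higher (0.37, adjusted p = 0.00887), and lost its call without control 2 (adjusted p = 0.0532). The counts of each of these lists stand beside the same 7.66% of all genes.

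The genes whose profile over the 6 lungs was nearest to that of Ret, by the root mean square difference of log2 values relative to the control mean, were Fbln7 (0.063), which encodes a fibulin of the extracellular matrix, the semaphorin Sema4f (0.069), Slc35f1 (0.081), Veph1 (0.082) and Shank2 (0.089), a scaffold protein known from synapses. Their differences lay between -0.93 and -0.78. Fbln7 read 7.35, 7.23 and 7.27 in mutants, against 8.23, 8.21 and 8.06 in controls. In the same ordering of 19937 genes, Erbb3 was at place 387, Ngfr at 677, Gfra1 at 3057, Sox10 at 8312, Gdnf at 17069 and Fabp7 at 19608. The measure depends mostly on the size of the group difference, since the groups stand apart.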

How the data were processed

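RNA of whole E14.5 lungs was measured on 6 single-colour Affymetrix arrays, 3 mutant and 3 control. The authors deposited log2 values; oligo, RMA and limma are the tools listed in the submitters' processing notes, with no version. RMA compresses the differences of dim features. Depth does not apply to arrays, so 3 arrays per group limit the precision, and p-values cover the spread between these samples.

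Of 35556 features, 21789 have a single gene symbol in the platform annotation, and 19938 genes were tested with limma 3.58.1 in R 4.3.3 (lmFit, eBayes, genotype only, 7.96 moderated degrees of freedom, Benjamini-Hochberg over all genes, threshold 0.05). SE and 95% intervals come from that fit unless stated. The test was also run on simulated data.

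The members and the 16 gene lists were chosen with earlier results of these data known. Of 284 listed names, 270 were measured, and the others are not reported here. Besides the members, the genes named are the 3 targeted genes, up to 4 called genes of largest difference per list (in a list with none, the 2 of smallest p) and the 5 profiles nearest to Ret. Others are marked as chosen after their values were seen. Same-numbered lungs did not pair: their deviations from the group means correlated at -0.069, 0.049 and 0.15.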

Additional observations from a re-analysis of the deposited data

How the results depend on the processing

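The alternatives were repeated quantile normalization, centring on array medians, leaving out the lowest of 3 equal parts of genes by mean, testing all features, averaging features, a variance trend with robust moderation, array weights (statmod 1.5.0), the replicate block, embryo sex, the heart muscle median as a covariate, and each array left out in turn. Over these 16 the Ret difference stayed between -0.92 and -0.80 with limma adjusted p of 0.000203 to 0.00473. Of 112 member values, 101 kept direction and side of the threshold. Sox10 changed sign with array weights (0.025), and over the arrays left out in turn it ranged from -0.10 to 0.07, positive without mutant 2 (0.074) and without control 1 (0.010). Erbb3 ranged from -0.74 to -0.43 and Fabp7 from 0.46 to 0.69 with an array left out, and all lost calls of both arose there. Gfra1, Gdnf, Sox10 and Ngfr did not pass under any of the 16, and the 6 values of Ret relative to another member kept their direction under every alternative run for them. The 1528 changed genes became 778 to 1745 with an array left out (876, 793 and 778 without controls 1, 2 and 3) and 549 when a 1.5-fold change was also required. With the replicate block 1137 genes passed, the Ret difference was -0.85 (adjusted p = 0.00103), and the correlations of same-numbered lungs gave no ground for pairing. Of 256 list counts 61 moved by more than 1.5 times, and of 716 values of named genes 52 lost and 4 gained a call. Fewer samples were fitted in the leave-one-out settings; for the others the cause was not tested. One more alternative was chosen and run after seeing the data, then set aside after its results were seen: a limma fit, over all genes, of Ret minus each gene within arrays. It called all 6 pairs, Erbb3 included, and nearly every gene on the array. Each of its values holds the same Ret error, which collapses the estimated spread and makes its p-values too small, so they are not given and support nothing here. Other features of a member could not be tried, since each had 1. The array values hold no detection calls, so the dim Sox10, Cdh19 and S100b limit what could be seen of glia.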

Other observations

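Some crest and neuron genes lay close to the threshold without passing it, chosen after their values were seen. Phox2a, a homeobox factor of autonomic neurons, read 6.67, 6.45 and 6.30 in mutants, against 6.19, 5.93 and 5.99 in controls (0.43 ± 0.11, limma adjusted p = 0.0502). Tfap2a, a factor of early neural crest that surface epithelium also makes, read 5.99, 5.75 and 6.57 in mutants, against 5.58, 5.34 and 5.37 in controls (0.67 ± 0.19, adjusted p = 0.0769).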
